A study of Xenopus laevis with 4 samples.

Results

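Eph receptors and their ephrin ligands were read out in ventral mesoderm of *Xenopus laevis* gastrulae. Members were all genes whose symbol is an ephrin-A, ephrin-B, EphA or EphB name with its homeolog suffix, which gave 26 of the 21531 genes in the table. They comprised 8 ephrin-A, 5 ephrin-B, 6 EphA and 7 EphB genes. The .L and .S suffixes mark the copies, called homeologs, that this allotetraploid frog keeps on its long and short chromosome sets, and 10 of the symbols were present as both. The control group held 2 libraries from embryos injected with Cas7-11 mRNA, and the sox8 CRISPR group held 2 libraries from embryos injected with Cas7-11 mRNA and sox8 guides. Cas7-11 is an RNA-guided nuclease that cuts RNA, so the treatment is a knockdown of the sox8 transcript and leaves the gene itself in place, and the controls carry the same nuclease mRNA. The injections were aimed at the ventral side, and the ventral tissue was dissected at gastrulation, so the knockdown was not made in the whole embryo. Each library is labelled as a separate embryo of its group.

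Eph receptors are receptor tyrosine kinases, and ephrins are ligands held at the surface of neighbouring cells, so the pair signals only where cells touch. Ephrin-A ligands are anchored by a lipid and mainly bind EphA receptors, whereas ephrin-B ligands cross the membrane and mainly bind EphB receptors, with EphA4 able to bind both kinds. Signals pass forward into the receptor cell and in reverse into the ligand cell, and often end in repulsion. In the Xenopus gastrula such repulsion keeps the involuted mesoderm apart from the overlying ectoderm, and ephrin-B2, ephrin-B3, EphA4 and EphB4 have been assigned roles at that boundary.

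The libraries held 18189895 to 24108577 reads on genes, and 1 read was worth 0.625 to 1.56 normalized counts. Sox8 CRISPR replicate 2 stood apart by its zeros. Of the genes with a mean of 20 to 1000 normalized counts in the other 3 libraries, 12% were listed at 0 there, against 1.46% to 2.41% when the same was asked of each other library. Of the 26 members, 7 were at 0 in this library, where 17.9% of all genes were, 2 in sox8 CRISPR replicate 1 and 0 in the controls. Values are given for replicates 1 and 2 of the controls and then of the sox8 CRISPR group. The targeted sox8.L was 508 and 927 normalized counts in the controls against 26.9 and 25.4 in the sox8 CRISPR libraries (log2 fold change -4.66, SE 0.97, limma adjusted p = 0.0436, 3.26e-06 to 0.997 over the alternatives). The homeolog sox8.S stood at 14.1 and 43.7 in the controls against 134 and 0 in the sox8 CRISPR libraries, so its groups overlapped. All 28 genes of a ventral and lateral mesoderm list, such as the ventx genes, had negative fold changes, and limma called 14 of them lower. Their summed level was 82844 to 88575 in the controls against 14323 to 14734 in the sox8 CRISPR libraries, where evx1.S and gata2.S were at 0 in both. Of 21 organizer and dorsal mesoderm genes, limma called 8 higher and 19 had positive fold changes. Their sum was 1229 and 1549 in the controls, with chrd.1.L, chrd.2.L, admp.S and otx2.L at 0 in both, and 86927 and 11897 in sox8 CRISPR replicates 1 and 2. In bulk tissue, fewer cells of a type and less RNA per cell cannot be told apart.

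The first question was whether the Eph and ephrin genes differed as a family between control and sox8 CRISPR tissue. They did not share a direction. Positive fold changes were found for 12 of the 26 genes and negative ones for 14, where 45.4% of all genes were positive, with a median log2 fold change of -0.30, beside a median of -0.16 over all genes. Limma called 0 of the 26 genes (adjusted p below 0.05, log2 fold change beyond 0.58 in either direction), where 0.334% of all genes were called, 0.144% higher and 0.19% lower. Their limma adjusted p-values ran from 0.343 to 0.981. At an unadjusted p under 0.05, 4 members passed (15.4%), namely efnb2.S with a higher value and epha3.S, ephb3.S and ephb4.L with lower values, against 6.79% of all genes (3.01% higher, 3.79% lower). The quasi-likelihood test of edgeR called 0 members, against 0.506% of all genes, and DESeq2 called 1, epha3.S, against 1.96% of all genes. Of the 26 members, 4 have no DESeq2 adjusted p. The fold changes themselves were wide. They ranged from -5.68 to 3.90 on the log2 scale, and 22 members (84.6%) passed the fold threshold alone, against 67.3% of all genes. The sox8 CRISPR libraries were over 2-fold apart in 20 of the 26 members (76.9%), against 61.1% of all genes. The controls were so in 14 members (53.8%), against 49.8% of all genes. In 13 members (50%) the sox8 CRISPR pair lay beyond the control pair, 5 above and 8 below, against 36.1% of all genes, 17% above and 19.1% below. With 2 libraries against 2, an exact permutation test of a single value cannot give a two-sided p below 0.333.

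**Figure D1:**
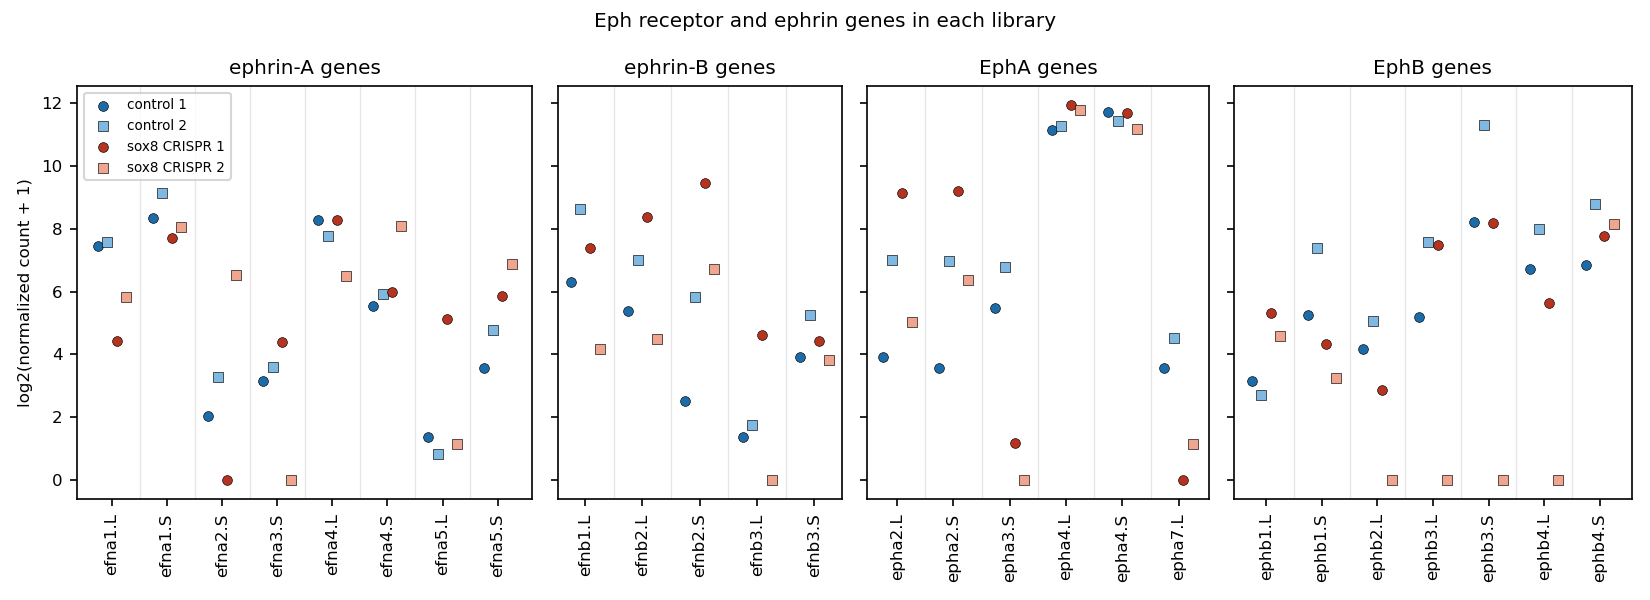
Level of each of the 26 Eph and ephrin genes in each library, as log2(normalized count + 1) on the vertical axis, in 4 panels by class, with controls in blue and sox8 CRISPR libraries in red (circles for replicate 1, squares for replicate 2). In the EphB panel 4 of the 7 genes are at 0 in sox8 CRISPR replicate 2, whereas the 4 points of each epha4 homeolog lie close together.

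Classes A and B, and ligands and receptors, are compared by their medians as a description. The median log2 fold change was -0.01 over the ephrin-A genes (0.92 with edgeR and 0.86 with DESeq2), 0.26 over the ephrin-B genes (-1.56 without sox8 CRISPR replicate 1 and 2.20 without replicate 2), 0.25 over the EphA genes (-0.42 without sox8 CRISPR replicate 1 and -1.62 with homeologs summed) and -2.65 over the EphB genes (-4.63 to -1.47 with 1 library left out). Ligands as a whole had a median of 0.26, which was -0.75 without sox8 CRISPR replicate 1 and -0.39 without control replicate 1, and receptors had one of -2.53. Class A genes had a median of 0.23, which ran from -0.42 without sox8 CRISPR replicate 1 to 0.25 without replicate 2. Class B genes had a median of -1.07, which ran from -2.38 to -0.06 over the same fits and was -0.15 without control replicate 2. EphB genes were the class with the most zeros in sox8 CRISPR replicate 2, with 4 of 7 genes at 0, against 1 gene in each other class. Without this library the EphB median was -1.59 and the receptor median -0.04, while the median over all genes was 0.09. The EphB median thus stayed negative without it, and the receptor median came close to 0.

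**Figure D2:**
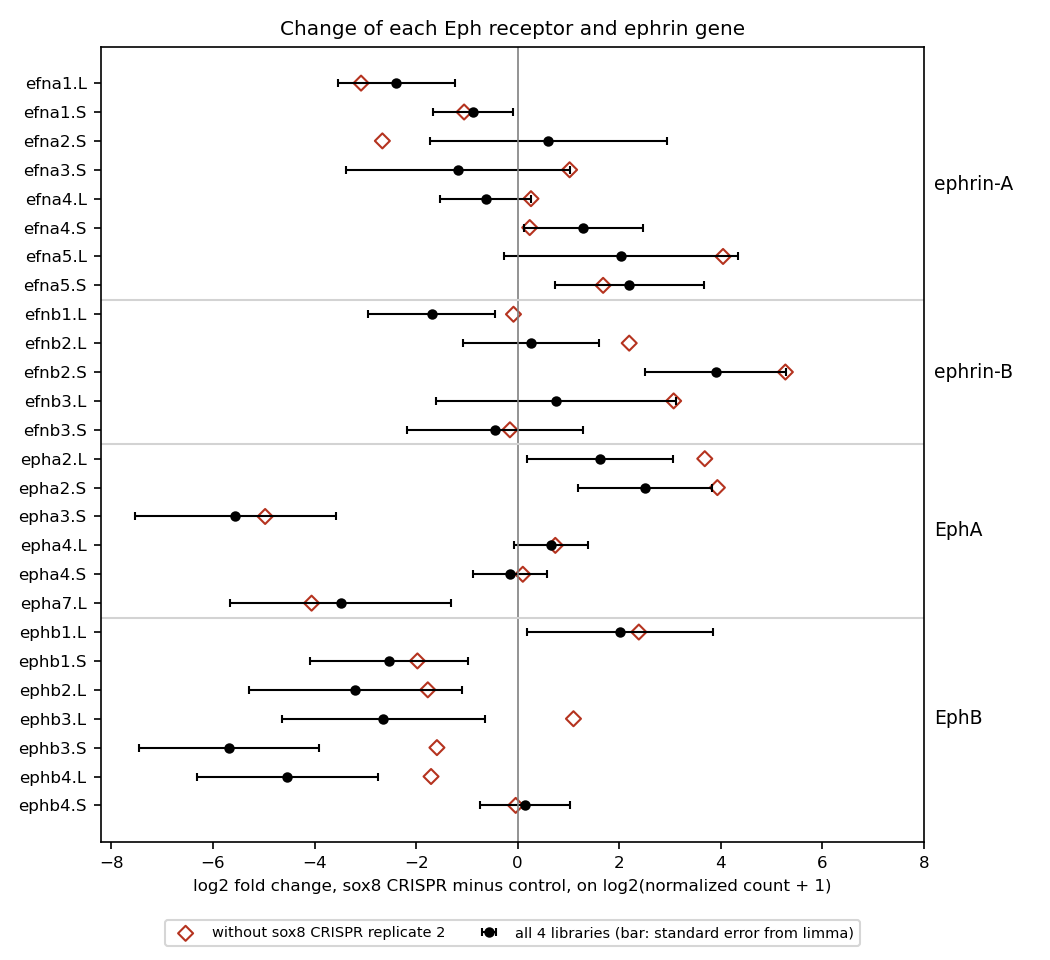
Log2 fold change of each member, sox8 CRISPR minus control, on log2(normalized count + 1), with black points and bars for the limma estimate and its standard error from all 4 libraries and open red diamonds for the estimate without sox8 CRISPR replicate 2. The estimates run from -5.68 for ephb3.S to 3.90 for efnb2.S. The diamonds of efna2.S, efna3.S, efna4.L, epha4.S, ephb3.L and ephb4.S lie on the other side of 0 from their points.

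Among the ephrin-A ligands, both homeologs of efna1, a ligand that binds EphA2, were lower in the sox8 CRISPR libraries. The .L homeolog was 175 and 190 normalized counts in the first and second control library and 20.6 and 55.6 in the first and second sox8 CRISPR library. The groups did not overlap, and the lower control was 3.15-fold above the higher sox8 CRISPR library. The log2 fold change was -2.39 (SE 1.16, limma adjusted p = 0.742). The .S homeolog was 326 and 568 in the controls against 207 and 265 in the sox8 CRISPR libraries. These groups did not overlap either, by a smaller margin of 1.23-fold (log2 fold change -0.88, limma adjusted p = 0.864). Its partner efna1.L lies on chromosome 8L at 134336090 to 134344019 of the v10.1 assembly.

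The ligand gene efna4, whose .L homeolog lies 214195 bases from efna1.L on chromosome 8L, had another pattern of values. Its .L homeolog was 308 and 219 normalized counts in the controls against 311 and 89.4 in the sox8 CRISPR libraries, with overlapping groups (log2 fold change -0.63, limma adjusted p = 0.897). Its .S homeolog was 45.3 and 60.4 in the controls against 61.8 and 270 in the sox8 CRISPR libraries. Both sox8 CRISPR values were above both controls, the nearest by 1.02-fold (log2 fold change 1.29, limma adjusted p = 0.864). Low reads in sox8 CRISPR replicate 2 for .L and high reads for .S left the sum of the homeologs between 279 and 373 in all 4 libraries.

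The other ephrin-A genes had means under 100 normalized counts. For efna5.S, a ligand known as an axon repellent in the mouse, the values were 10.9 and 26.2 in the controls against 56.8 and 117 in the sox8 CRISPR libraries. The groups did not overlap, the nearest libraries being 2.17-fold apart (log2 fold change 2.20, limma adjusted p = 0.821). It is named here after its values were seen. The remaining ephrin-A genes, efna2.S, efna3.S and efna5.L, ranged from 0 to 91.9 with overlapping groups.

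The ephrin-B ligands showed a different balance of genes in the control and sox8 CRISPR libraries. The gene efnb1.L, whose product takes part in reverse signalling, was 78.1 and 398 normalized counts in the controls against 167 and 16.9 in the sox8 CRISPR libraries. The groups overlapped, with a log2 change of -1.70 (SE 1.25, limma adjusted p = 0.834) that became -0.08 without sox8 CRISPR replicate 2. It lies on chromosome 8L at 33773980 to 33832353.

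For efnb2, the ligand of EphB4, the homeologs differed. The .S homeolog, on chromosome 2S at 109164437 to 109198163, was 4.68 and 56.4 normalized counts in the controls against 696 and 104 in the sox8 CRISPR libraries. Both sox8 CRISPR libraries were above both controls, the nearest by 1.84-fold, with replicate 1 the highest of all. This gave the largest positive fold change among the members, 3.90 on the log2 scale (SE 1.39), and limma gave an adjusted p of 0.516 (unadjusted p = 0.0117). The adjusted p ran from 0.0258, with a crossed replicate block chosen after the data were seen, to 0.997 over the alternatives. The fold change was 2.24 without control replicate 1 and 5.27 without sox8 CRISPR replicate 2. The .L homeolog, on chromosome 2L at 123261086 to 123295495, was 40.6 and 127 in the controls against 334 and 21.8 in the sox8 CRISPR libraries. Its sox8 CRISPR values enclosed both controls (log2 fold change 0.26, limma adjusted p = 0.976). The efnb3 homeologs, which encode the ligand paired with EphA4 at the ectodermal side of the boundary, ranged from 0 to 37.4 over the libraries, with overlapping groups.

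The summed ephrin-B level varied within both groups, at 139 and 622 normalized counts in the controls against 1241 and 156 in the sox8 CRISPR libraries. The share of these reads that fell on each gene varied less between replicates. Of the ephrin-B reads, efnb2 held 32.6% and 29.5% in the controls against 83.0% and 80.6% in the sox8 CRISPR libraries. For efnb1.L the shares were 56.2% and 64.1% in the controls against 13.4% and 10.9% in the sox8 CRISPR libraries. The controls thus resembled each other, as did the sox8 CRISPR libraries, in the shares of efnb2 and efnb1.L if not in sums. Shares within a class depend on each other, so a higher efnb2 share need not be a higher efnb2 level. The summed level of the efnb2 homeologs overlapped between groups. It was 45.3 and 184 normalized counts in the controls against 1030 and 126 in the sox8 CRISPR libraries. The efnb3 shares were 11.2% and 6.39% in the controls against 3.57% and 8.53% in the sox8 CRISPR libraries, with overlapping groups. Control replicate 1 and sox8 CRISPR replicate 2 held only 89 and 129 ephrin-B reads. Exact 95% binomial intervals for efnb2 were 23.0% to 43.3% and 26.4% to 32.9% in the controls, and 81.3% to 84.6% and 72.7% to 87.0% in the sox8 CRISPR libraries. These intervals cover counting error only, the shares are of reads and not corrected for transcript length, and the comparison was chosen after the values were seen, so no test was made.

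In the ephrin-A class, efna1 held 57.1% and 69.9% of the reads in the controls against 32.0% and 36.0% in the sox8 CRISPR libraries. For efna5 the shares were 1.42% and 2.49% in the controls against 12.8% and 13.3% in the sox8 CRISPR libraries. The control shares rest on 8 and 34 reads. In sox8 CRISPR replicate 1 the efna5 reads were 55 on .L and 91 on .S, against 1 and 97 in replicate 2. As above, efna5 was picked out after its values were seen. Other shares varied between replicates, with efna4 at 40.2% and 25.7% in the controls against 52.4% and 40.4% in the sox8 CRISPR libraries, and efna2.S at 0.356% and 0.806% against 0% (at most 0.323% by the exact 95% interval) and 10.3%. The class sum was 878 and 1084 normalized counts in the controls against 711 and 890 in the sox8 CRISPR libraries.

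**Figure D3:**
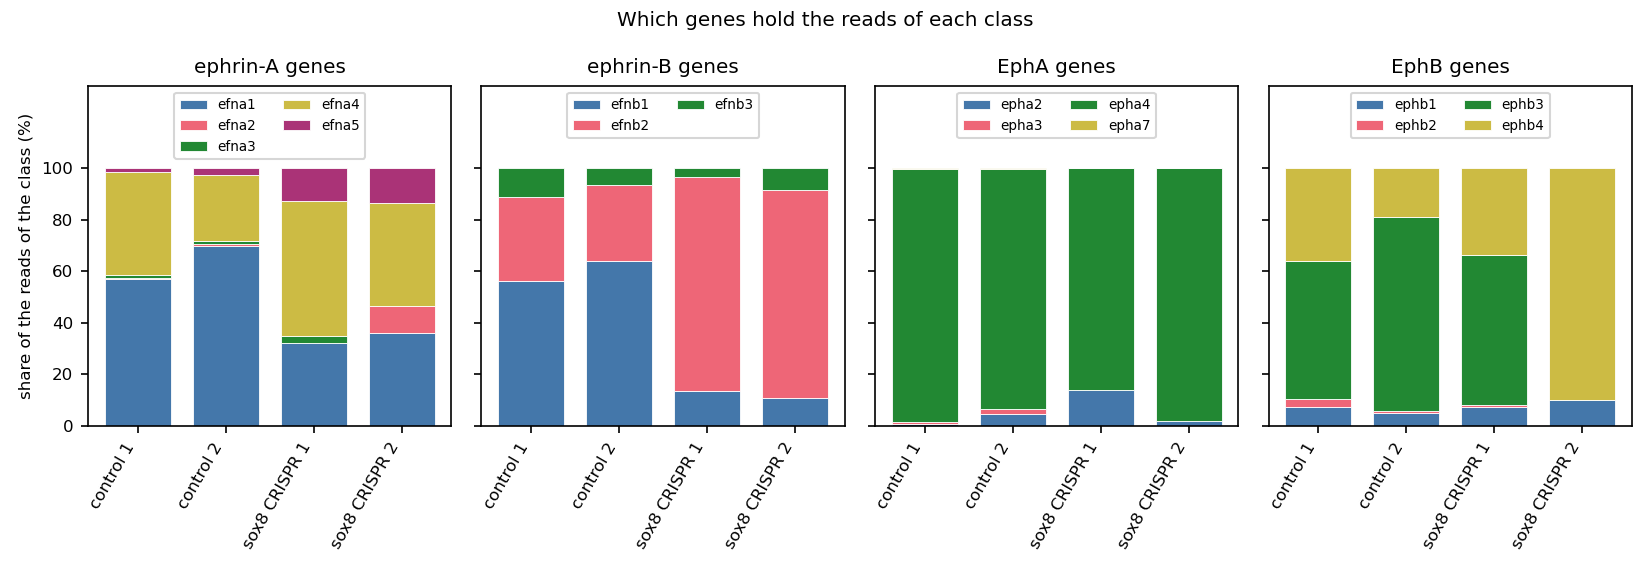
Share of the reads of each class that fell on each gene, with .L and .S homeologs added, in percent, with 1 bar per library. In the ephrin-B panel efnb2 takes 29.5% to 32.6% in the controls against 80.6% to 83.0% in the sox8 CRISPR libraries, and in the EphA panel epha4 takes 86.2% or more in every library.

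Among the receptors, epha4, which binds both ephrin classes and is known for cell repulsion in the Xenopus embryo, took 86.2% to 98.6% of the EphA reads. Its .L homeolog, on chromosome 5L at 133526575 to 133573023, was 2280 and 2469 normalized counts in the controls against 3965 and 3515 in the sox8 CRISPR libraries. The groups did not overlap, the nearest libraries being 1.42-fold apart (log2 fold change 0.65, SE 0.73, limma adjusted p = 0.885). The standard deviation was 134 normalized counts in the controls and 319 in the sox8 CRISPR libraries. The SE from limma also draws on other genes of similar level. The .S homeolog, on chromosome 5S at 112401465 to 112456534, was 3364 and 2778 in the controls against 3279 and 2312 in the sox8 CRISPR libraries. There was overlap (log2 fold change -0.15, limma adjusted p = 0.973). At 2280 to 3965 normalized counts, and 1460 to 6348 reads per homeolog and library, epha4 was the member with the most reads behind its values.

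The receptor gene epha2, whose product binds ephrin-A1, was highest in sox8 CRISPR replicate 1. Its .L homeolog was 14.1 and 127 normalized counts in the controls against 563 and 31.4 in the sox8 CRISPR libraries, and its .S homeolog 10.9 and 126 in the controls against 592 and 81.0 in the sox8 CRISPR libraries. In both homeologs sox8 CRISPR replicate 1 was the highest library and control replicate 1 the lowest, and the groups overlapped. The log2 fold changes were 1.62 for .L (limma adjusted p = 0.860) and 2.50 for .S (limma adjusted p = 0.767). They were 3.68 and 3.93 without sox8 CRISPR replicate 2. Sox8 CRISPR replicate 1 also held the larger organizer sum and the larger ephrin-B sum of the sox8 CRISPR group, and the part of the tissue markers in these values was not tested.

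The remaining EphA genes had 0 to 2 reads in each sox8 CRISPR library. Both are named after their values were seen, epha3.S as the only member that DESeq2 called. The receptor gene epha3.S was 43.7 and 110 normalized counts in the controls against 1.25 and 0 in the sox8 CRISPR libraries. This rests on 167 reads in the controls against 2 in the sox8 CRISPR libraries, a ratio of 107 with a counting interval of 29.1 to 889. Counting intervals here pool the reads of a group and leave out the spread between its libraries, so they do not test the group difference. The limma log2 fold change was -5.56 (SE 1.98, adjusted p = 0.524) and the DESeq2 adjusted p was 0.0256, the lowest over the alternatives, where the highest was 0.999. The receptor gene epha7.L was 10.9 and 22.3 in the controls against 0 and 1.21 in the sox8 CRISPR libraries, from 35 reads against 1 (ratio 44.8, counting interval 7.52 to 1818, limma adjusted p = 0.815). Both control libraries of each gene were above both sox8 CRISPR libraries.

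The EphB receptors, which bind ephrin-B ligands, were lower in the sox8 CRISPR libraries in 5 of 7 genes by fold change, against 54.6% of all genes. Both libraries were below both controls in 4 of the 7 genes and above them in 1, against 19.1% and 17% of all genes. The gene ephb3.S, on chromosome 5S at 86035737 to 86069464, was 295 and 2554 normalized counts in the controls against 288 and 0 in the sox8 CRISPR libraries. Control replicate 1 and sox8 CRISPR replicate 1 thus stood 1.02-fold apart, and the high control and the zero made the rest of the difference. Of 5431 genes at 250 or more normalized counts in each of the other 3 libraries, 1 was at 0 in sox8 CRISPR replicate 2 (0.0184%), and it was ephb3.S. Of 8442 genes at 100 or more, 36 were at 0 there (0.426%). These levels were chosen after the value of ephb3.S was seen. Its log2 fold change was -5.68 (SE 1.77), with an unadjusted p of 0.005 and a limma adjusted p of 0.343. It was -1.59 without sox8 CRISPR replicate 2, -3.22 with edgeR and -3.31 with DESeq2. Its adjusted p was 0.00712 by limma with the replicate block, 0.671 with edgeR and 0.862 with DESeq2. The labels do not say whether same-numbered libraries belong together, so that block may pair unrelated libraries. The crossed replicate block, chosen after the data were seen, gave a lower adjusted p, from which nothing is concluded. The homeolog ephb3.L was 35.9 and 192 in the controls against 180 and 0 in the sox8 CRISPR libraries. Its groups overlapped, with a log2 change of -2.65 (limma adjusted p = 0.840) that became 1.10 when sox8 CRISPR replicate 2 was left out and -0.26 with edgeR.

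For ephb4, the receptor of ephrin-B2, the homeologs parted. The .L homeolog, on chromosome 3L at 159718902 to 159745466, was 105 and 254 normalized counts in the controls against 49.3 and 0 in the sox8 CRISPR libraries. Both sox8 CRISPR libraries were below both controls, the nearest by 2.12-fold. The log2 fold change was -4.53 (SE 1.78), with an unadjusted p of 0.0205 and a limma adjusted p of 0.627, and it was -1.71 without sox8 CRISPR replicate 2 and -2.75 with edgeR. The .S homeolog was 116 and 439 in the controls against 219 and 282 in the sox8 CRISPR libraries. There was overlap (log2 fold change 0.14, limma adjusted p = 0.981).

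The other EphB genes had means under 100. The homeologs of ephb1 went opposite ways, and are named for that after their values were seen. The .L copy was 7.81 and 5.56 normalized counts in the controls against 38.7 and 23.0 in the sox8 CRISPR libraries, and both of these were above both controls (limma adjusted p = 0.864). The .S copy was 37.5 and 165 in the controls against 19.4 and 8.46 in the sox8 CRISPR libraries, and both of these were below both controls (limma adjusted p = 0.813). The gene ephb2.L was 17.2 and 32.6 in the controls against 6.25 and 0 in the sox8 CRISPR libraries, again without overlap (limma adjusted p = 0.818).

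The balance of homeologs was tested as log2(.L + 1) minus log2(.S + 1) over all 5640 pairs of the table. Limma called 0 of the 10 Eph and ephrin pairs, and 0% of all pairs, with 3 member pairs, efnb2, ephb1 and ephb4, at an unadjusted p under 0.05 against 7.15% of all pairs. In 7 of the 10 pairs (70%) the sox8 CRISPR balances lay beyond those of the controls, against 39.6% of all pairs. The 7 include ephb3, which had 0 reads in sox8 CRISPR replicate 2, so its balance of 0 there comes from the pseudocount alone. Among pairs with a read in every library the counts were 6 of 9 (66.7%), against 39.4% of all such pairs. For efnb2 the .L homeolog held 89.7% and 69.3% of the pair's reads in the controls against 32.4% and 17.3% in the sox8 CRISPR libraries (limma adjusted p = 0.675). For ephb4 the .L share was 47.5% and 36.7% in the controls against 18.4% and 0% in the sox8 CRISPR libraries (limma adjusted p = 0.676), the last allowing up to 1.57% by the exact 95% binomial interval. For ephb1 it was 17.2% and 3.26% in the controls against 66.7% and 73.1% in the sox8 CRISPR libraries (limma adjusted p = 0.676). The epha4 pair, with the most reads, had .L shares of 40.4% and 47.1% in the controls against 54.7% and 60.3% in the sox8 CRISPR libraries (unadjusted p = 0.0701, limma adjusted p = 0.692). Reads shared by near-identical homeologs may be split between them by the counting, which is not stated in the sources used here.

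**Figure D4:**
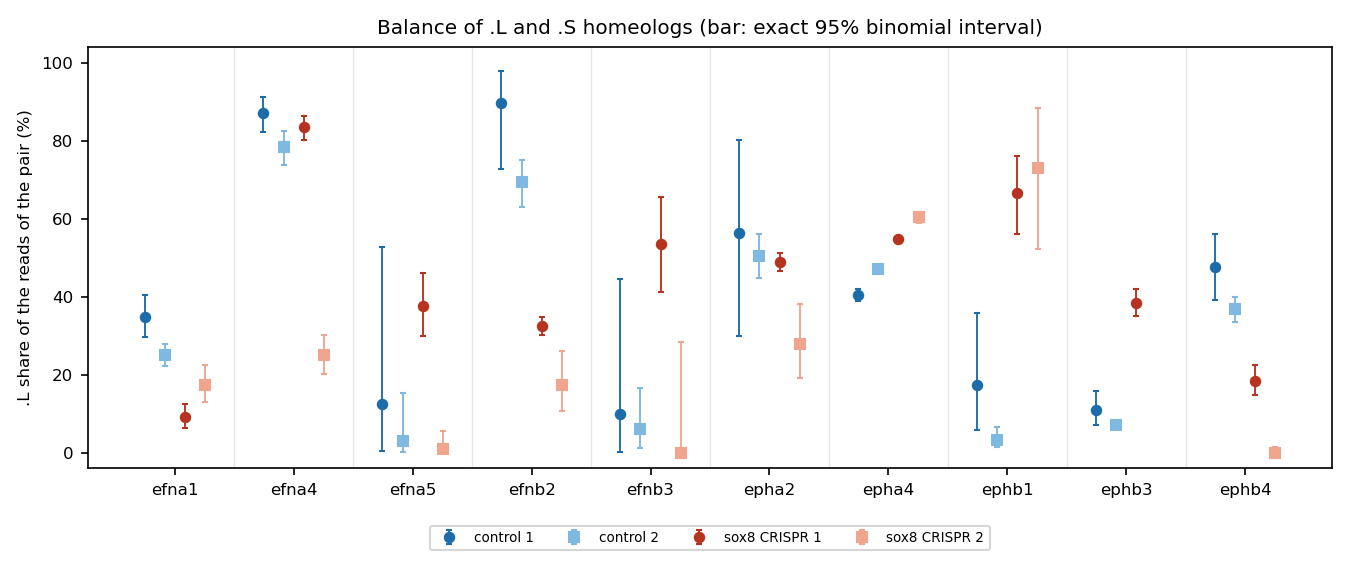
Share of the .L homeolog in the reads of each pair, in percent, with exact 95% binomial intervals that cover counting error only, for each library (controls in blue, sox8 CRISPR in red). The .L shares of efnb2 and ephb4 are lower, and those of ephb1 and epha4 higher, in each sox8 CRISPR library than in either control, and ephb3 has no point in sox8 CRISPR replicate 2 because neither homeolog had a read there.

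The genes that act with the receptors and ligands were described by lists, of forward signalling below Eph receptors, reverse signalling below ephrin-B, shedding and turnover, and tissue separation at the ectoderm and mesoderm boundary. Of their 212 distinct genes, 0 were called by limma, 0 by edgeR and 0 by DESeq2, and 13 (6.13%) passed an unadjusted p under 0.05 in limma, against 6.79% of all genes. Median log2 fold changes were 0.05, 0.02, -0.14 and 0.07 over the 4 lists, beside -0.16 over all genes. In forward signalling, rock2.L, a kinase that acts on actomyosin contraction, was 116 and 165 in the controls against 116 and 3.63 in the sox8 CRISPR libraries, where the first of each pair are equal at this rounding, and its log2 change of -2.58 (limma adjusted p = 0.795) became -0.26 without sox8 CRISPR replicate 2. In reverse signalling, pard6g.L, a polarity gene, was 912 and 475 in the controls against 200 and 54.4 in the sox8 CRISPR libraries (log2 fold change -2.64, or -1.71 without sox8 CRISPR replicate 2, limma adjusted p = 0.419). There too rgs3.L, a regulator of G protein signalling that binds ephrin-B in the mouse, was 539 and 263 in the controls against 91.2 and 2.42 in the sox8 CRISPR libraries (log2 fold change -4.41, or -2.03 without sox8 CRISPR replicate 2, limma adjusted p = 0.351).

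Among the genes of shedding and turnover, adam10.L, the protease that cuts ephrins, was 208 and 198 normalized counts in the controls against 114 and 32.6 in the sox8 CRISPR libraries (log2 fold change -1.71, or -0.83 without sox8 CRISPR replicate 2, limma adjusted p = 0.813). In the boundary list, flrt3.S, a membrane protein that modulates cell adhesion in the Xenopus gastrula, was 1379 and 2048 in the controls against 436 and 169 in the sox8 CRISPR libraries (log2 fold change -2.62, limma adjusted p = 0.243). The chemokine receptor gene cxcr4.S was 136 and 354 in the controls against 41.2 and 29.0 in the sox8 CRISPR libraries (log2 fold change -2.63, limma adjusted p = 0.683). In each of these list genes the groups did not overlap, and none of them passed the test. For rock2.L the lack of overlap means nothing, as it rests on 115.562 in control replicate 1 against 115.558 in sox8 CRISPR replicate 1. That gap is below the worth of 1 read.

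Markers of other tissues were summed over the same libraries. Pan-mesoderm genes summed to 44736 and 80329 normalized counts in the controls against 88200 and 103398 in the sox8 CRISPR libraries, with 0 of 8 called by limma. Epidermis genes, which would mark adhering ectoderm, summed to 1442 to 1680 in the controls against 1112 to 2118 in the sox8 CRISPR libraries, with 0 of 16 called by limma. Fold changes were positive in 10 epidermis genes and negative in 6, so their sum covers both directions. Endoderm genes summed to 910 to 1212 in the controls against 1147 to 1858 in the sox8 CRISPR libraries. Limma called 0 of 16, and 11 of the 16 were at 0 in sox8 CRISPR replicate 2. Fold changes were positive in 6 endoderm genes and negative in 10, so this sum also covers both directions. Neural plate genes summed to 3030 and 3953 in the controls against 9713 and 5550 in the sox8 CRISPR libraries, with 1 of 20, zic2.S, called higher by limma. DESeq2 called 2 pan-mesoderm, 1 epidermis, 1 endoderm and 2 neural plate genes. The summed ventral list was lower and the summed organizer list higher in each sox8 CRISPR library than in either control. The summed EphB level overlapped between groups, at 614 and 3643 normalized counts in the controls against 801 and 313 in the sox8 CRISPR libraries. The part of the 2 marker lists in the ephrin-B shares and the EphB values was not tested.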

How the data were processed

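Smart-seq2 libraries of ventral mesoderm were made by the authors, who trimmed reads with cutadapt 4.4, aligned them to the X. laevis v10.1 genome with HISAT2 2.2.1 and counted them per gene with featureCounts 2.0.6. Genes with a mean under 5 were removed. Strand use and the treatment of multi-mapping reads are not given in the sources used here. Per the deposited table, the signal is a normalized count, made by the authors from read counts with DESeq2 size factors. Undoing the factor of each library gave whole reads for 100% of values (tolerance 0.01 reads), and the table held 0 other columns with values.

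Control and sox8 CRISPR libraries were compared by limma 3.58.1 (R 4.3.3), on a log2 scale with a pseudocount of 1 and a trend of variance on mean level. P-values were adjusted by Benjamini-Hochberg across the 21531 genes. Fold changes are on that scale, so those of genes with few or 0 reads depend on the pseudocount. A gene was called where the adjusted p was below 0.05 and the log2 fold change beyond 0.58 in either direction. Alternatives were edgeR 4.0.16 and DESeq2 1.42.0 on recovered reads, TMM scaling, pseudocounts of 0.5 and 5, a mean of 20 or more, no trend, a replicate block, summed homeologs, the fold alone and leaving out each library. The fits were also run on simulated counts. That simulation did not add the excess of zeros of sox8 CRISPR replicate 2, its outcome is not reported here, and nothing rests on it.

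Members and lists were chosen with earlier results of these data known. The text names members that are called or have a mean of 100 or more over the 4 libraries, with their homeologs, sox8, and from each list the called genes and the 2 largest changes among genes with a mean of 100 or more and groups that do not overlap. From the tissue lists only the counts and sums, zic2.S and the ventral and organizer genes at 0 in a whole group are given. Of the endoderm list 2 genes were also at 0 in both sox8 CRISPR libraries, and of the neural plate list 3 in both controls. Any other member named was chosen after its values were seen. Of the list genes that this rule selects, some are not reported here. Of the 26 members, 18 matched a symbol in the RefSeq gene table of the v10.1 assembly, which gave coordinates. Transcript lengths were not used, so shares of reads are not shares of transcripts. The shares serve to compare libraries, and differences in level between genes cannot be read from them. Smart-seq2 reads carry no molecular identifiers and are not independent molecules, so intervals cover counting error only, and 2 libraries per group limit the precision. Whether the libraries of a group came from separate clutches is not stated in the sources used here. The p-values thus refer to these libraries only. Limma also moderates the variance of each gene towards that of genes of similar level. Its SE and p-values therefore do not measure the spread of a gene's own libraries alone.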

Additional observations from a re-analysis of the deposited data

How the results depend on the processing

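Over all genes, 72 were called by limma. The count was 153 with a pseudocount of 5, 0 without the intensity trend, 109 with edgeR, 423 with DESeq2, 14493 by the fold alone, and 0 to 0 when 1 library was left out, where the lone library is assumed to vary like the other group. Of the 26 Eph and ephrin genes, 0 were called in the main test, 1 by DESeq2 (epha3.S), 22 by the fold alone, and 0 in each leave-one-out fit. In the signalling and boundary lists the fold alone passed 138 genes against 0 calls. In the tissue lists 23 calls became 0 without the trend, 38 with DESeq2, 15 with homeologs summed, 97 by the fold alone and 0 with 1 library left out.

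The labels number the libraries within each group and do not say whether libraries of the 2 groups belong together in pairs. The deviations of same-numbered libraries correlated at -0.218 across genes. With the replicate block 1 member, ephb3.S (limma adjusted p = 0.00712), was among the 86 genes called of 21531. That block also called 38 homeolog pairs against 0 in the main test, and 0 of them were member pairs. A crossed block, chosen after seeing the data, called 776 genes, among them 2 members. Leaving out 1 library gave 0 to 752 called homeolog pairs, the highest without sox8 CRISPR replicate 1, with 2 member pairs among them.

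The ephrin-A median of -0.01 was 0.92 with edgeR and 0.86 with DESeq2, and the ephrin-B median of 0.26 ran from -1.56 to 2.20 when 1 library was left out, lowest without sox8 CRISPR replicate 1 and highest without replicate 2. The log2 fold change of sox8.L, -4.66, missed the threshold at -4.69 with a pseudocount of 0.5, -4.61 with TMM, -4.66 without the trend and with the replicate block, -3.45 with homeologs summed, and -5.10 to -4.23 with 1 library left out.

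Of 326 fold changes of members under alternatives, 302 kept their direction and side of the threshold, 22 reversed and 2 passed it. The fits without the trend, with the replicate block and with the mean filter return the same fold change, so none could reverse there. A kept direction also does not mean a similar size. For ephb3.S both -1.59, without sox8 CRISPR replicate 2, and -9.76, without replicate 1, counted as kept. The 302 is thus no measure of stability. Of the 26 members, 15 reversed under 0 alternatives. Reversed values were 0.19 with edgeR and 0.086 with DESeq2 for efna3.S and -0.13 and -0.15 for ephb4.S. With homeologs summed they were 0.22 for efna4.L, -0.031 for efnb3.L, 0.26 for epha4.S, -1.03 for ephb1.L and -0.51 for ephb4.S. When 1 library was left out, log2 fold changes ran from -2.66 to 3.87 for efna2.S, -3.37 to 1.02 for efna3.S, -1.53 to 0.26 for efna4.L, -1.68 to 2.20 for efnb2.L, -1.56 to 3.07 for efnb3.L, -1.13 to 0.22 for efnb3.S, -0.44 to 3.68 for epha2.L, -0.40 to 0.10 for epha4.S, -6.40 to 1.10 for ephb3.L and -0.82 to 1.10 for ephb4.S. The cause was not tested. At the lowest depth, 1 read was worth 1.56 normalized counts, so members under 30 normalized counts rest on few reads.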

Other observations

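In sox8 CRISPR replicate 2 both ephb3 homeologs were at 0, and the EphB reads of that library fell on ephb4.S, with 233 reads, and on the ephb1 homeologs, with 19 on .L and 7 on .S. At this library's depth, 3 reads correspond to 3.63 normalized counts.

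The classes differed in how far replicates of 1 group lay apart. Control replicate 2 was 4.47-fold above control replicate 1 in the summed ephrin-B level and 5.94-fold in the summed EphB level, but 1.24-fold in the summed ephrin-A level, and its summed EphA level was 0.984 times that of control replicate 1. Sox8 CRISPR replicate 1 was 7.96-fold above replicate 2 in ephrin-B and 2.56-fold in EphB, against 1.41-fold in EphA, and in ephrin-A it was the lower library, at 711 against 890 normalized counts. Without epha4, the EphA sums were 79.6 and 386 in the controls against 1157 and 114 in the sox8 CRISPR libraries, so the near-equal EphA sums rest on epha4. Of the 26 members, 22 (84.6%) were higher in control replicate 2 than in control replicate 1, against 51.8% of all genes.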
